A study of Mus musculus with 4 samples.

Results

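Class I histocompatibility molecules are the subject here, as measured by their transcripts: the common light chain B2m and 8 heavy chains, namely the classical H2-K1 and H2-D1 and the nonclassical H2-Q4, H2-Q6, H2-Q7, H2-T22, H2-T23 and H2-M3. These 9 genes, found by exact symbol, are 9 of the 55401 rows in each table and 9 of the 17905 rows with a mean of at least 1 FPKM (fragments counted per gene, scaled to exon length and library depth). They were chosen by their FPKM difference between the genotypes in these same libraries, so their values are given as a description, and no test is read from them. Poly(A) RNA came from testes of C57BL/6J mice at postnatal day 14, with 2 Kctd19-/- libraries (ko) and 2 Kctd19+/- libraries (het). Neither genotype is wild type, since the het testes carry 1 Kctd19 mutation as well, and the deleted stretch of the gene is not stated in the labels. The design text calls the replicates biological, without saying whether animals were pooled.

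A class I molecule is a heavy chain held together with the light chain, with a short peptide bound in the groove of the heavy chain. The proteasome cuts the peptides and the Tap transporter carries them into the endoplasmic reticulum, where the loaded complex is assembled and sent to the cell surface. CD8 T cells read classical complexes, and natural killer cells sense their presence or absence. Class I genes are induced by interferons in many cell types. Germ cells past the spermatogonial stage are known for low surface class I, whereas interstitial and immune cells of the testis carry it.

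The 4 libraries held 19430364 and 14573566 assigned reads in ko and 14638658 and 12155089 in het, as recovered from the steps of the FPKM values. Kctd19 itself stood at 12.8 and 15.6 FPKM in ko, against 29.7 and 18.2 FPKM in het, so its RNA remained in both ko libraries. Its log2 fold change was -0.69 (SE 0.25) and did not pass (limma, Benjamini-Hochberg adjusted p = 0.529). Testis identity was checked on marker lists. The summed level of 10 germ cell markers was 826 and 832 FPKM in ko and 1097 and 860.4 FPKM in het, and that of 10 Sertoli cell markers was 1876 and 1587 FPKM in ko and 1337 and 1540 FPKM in het. The 7 Leydig cell markers summed to 204 and 160.0 FPKM in ko and to 158 and 149 FPKM in het. None of the 3 sums overlapped between genotypes: the germ cell sum was lower in ko, and the other sums were higher. Limma called 0 tested markers of these 3 lists, while voom called the germ cell genes Piwil1 and Ldhc lower in ko. Piwil1 stood at 3.65 and 5.01 FPKM in ko and 28.06 and 14.25 FPKM in het. Ldhc stood at 11.73 and 10.64 FPKM in ko and 78.0 and 30.7 FPKM in het. The median log2 fold change of the germ cell list was -0.12. The part of such cell make-up in the class I difference was not tested.

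The promoters of class I genes share a short regulatory stretch, and it is printed here because it lets the members be set beside H2-Q10, a heavy chain gene of the same cluster whose FPKM values overlapped between genotypes. Sequences are RefSeq's for GRCm38.p6, from 250 bases before to 50 after the annotated start, and all 9 members had one. Those of H2-Q6, H2-Q7 and H2-T23 were searched but are not printed. The 140 bases printed begin 30 bases before an interferon regulatory factor-like core, and capitals mark whole matches of 4 motifs searched on both strands: that core (TTTCNNTT), an NF-kB-like core (GGATTCCC), a CRE-like core (TGACG) and the CCAAT box (ATTGG on the other strand).
H2-K1 (chr17:34000328-34000467, minus strand): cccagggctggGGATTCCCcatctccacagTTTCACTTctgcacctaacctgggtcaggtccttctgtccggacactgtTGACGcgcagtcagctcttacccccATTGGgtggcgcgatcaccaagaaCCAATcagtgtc
H2-D1 (chr17:35262914-35263053, plus strand): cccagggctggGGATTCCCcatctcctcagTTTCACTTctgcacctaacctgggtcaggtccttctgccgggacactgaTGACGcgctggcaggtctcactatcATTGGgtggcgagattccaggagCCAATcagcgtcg
H2-Q4 (chr17:35379434-35379573, plus strand): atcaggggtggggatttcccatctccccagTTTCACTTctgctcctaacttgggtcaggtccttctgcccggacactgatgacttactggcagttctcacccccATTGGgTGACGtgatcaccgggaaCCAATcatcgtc
H2-T22 (chr17:36042824-36042963, minus strand): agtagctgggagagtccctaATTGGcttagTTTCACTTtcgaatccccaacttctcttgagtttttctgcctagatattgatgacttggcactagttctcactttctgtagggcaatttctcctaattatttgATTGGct
H2-M3 (chr17:37270103-37270242, plus strand): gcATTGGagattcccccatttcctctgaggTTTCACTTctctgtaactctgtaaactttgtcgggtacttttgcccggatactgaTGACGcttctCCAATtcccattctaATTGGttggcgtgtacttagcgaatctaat
B2m (chr2:122147520-122147659, plus strand): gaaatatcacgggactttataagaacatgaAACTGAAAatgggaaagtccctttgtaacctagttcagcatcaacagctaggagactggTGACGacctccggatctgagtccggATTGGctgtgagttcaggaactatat
H2-Q10 (chr17:35469904-35470043, plus strand): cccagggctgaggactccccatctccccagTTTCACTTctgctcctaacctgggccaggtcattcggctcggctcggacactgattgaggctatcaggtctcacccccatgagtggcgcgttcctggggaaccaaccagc

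The interferon regulatory factor-like core lay in the 300-base promoter of 9 of the 9 members, against 24.3% of 27025 mouse promoters of the same length. The CCAAT box was also in 9 of 9, against 37.9%, and the CRE-like core in 7 of 9, against 20.9%. H2-Q6 and H2-T23 were the members without that core. A TATAA box, searched as well and not capitalised, was in 4 of 9, against 25.5%. The NF-kB-like core was in 4 members (H2-K1, H2-D1, H2-Q6 and H2-Q7), against 1.02% of promoters. All 4 motifs together were in 3 members and in 6 of the 27025 promoters. The NF-kB-like letters searched are exactly those found in H2-K1 and H2-D1, and variant forms were not searched. H2-Q4, whose printed letters at that place differ slightly, was counted as lacking the core. The comparison with all promoters thus favours members with those letters and is not a test. The H2-Q10 promoter kept the interferon regulatory factor-like core and held none of the other 3 motifs in these letters. The promoter of H2-T23, which was 6.05-fold higher in ko by means, also held neither the NF-kB-like nor the CRE-like core, but held a CCAAT box. Any link between these motifs and the FPKM difference was not tested. Members of a gene family share sequence by descent, so they are not independent examples. For H2-D1 and H2-T23 the RefSeq start lies 364 and 154 bases from the GENCODE gene's own start, and promoter sequence near that other start was not searched in full. A match is a description of letters and not a bound site.

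B2m was the most abundant member in every library and was higher in both ko libraries. It encodes the light chain that every heavy chain of this family pairs with (GRCm38 chromosome 2, 122147686 to 122153083, plus strand, protein coding). B2m stood at 581 and 464 FPKM in the ko libraries, against 89.3 and 108 FPKM in the het libraries, from 9716 and 5819 reads in ko and 1124 and 1125 reads in het. The groups did not overlap, and the lower ko library was 4.31-fold above the higher het library. Group means were 523 ± 82.8 FPKM in ko and 98.5 ± 13.0 FPKM in het (SD, n = 2 each), a 5.31-fold difference and a log2 fold change of 2.39 (SE 0.17) on the log2(FPKM + 1) scale.

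Both classical heavy chains, which present peptides to CD8 T cells, were higher in ko, H2-D1 by a wider margin than H2-K1. H2-K1 (chromosome 17, 33996017 to 34000347, minus strand) stood at 143 and 117 FPKM in ko, against 47.0 and 46.7 FPKM in het, a 2.78-fold difference of means (log2 fold change 1.45, SE 0.12). H2-D1 (chromosome 17, 35262730 to 35267499, plus strand) stood at 108 and 93.8 FPKM in ko, against 21.9 and 20.99 FPKM in het, which is 4.70-fold (log2 fold change 2.18, SE 0.10). Neither gene's groups overlapped. The ratio of H2-K1 to H2-D1 was 1.33 and 1.25 in the ko libraries, against 2.15 and 2.23 in the het libraries, so the pair stood closer to each other in ko.

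The 3 Q-region members were low in het and 4.75-fold to 7.56-fold higher in ko. H2-Q4 (chromosome 17, 35379617 to 35385290, plus strand) stood at 18.5 and 14.1 FPKM in ko and 2.32 and 2.00 FPKM in het. Its log2 fold change of 2.44 (SE 0.16) was close to that of B2m on the log2(FPKM + 1) scale, but by means it was 7.56-fold higher, against 5.31-fold for B2m. The closely related H2-Q6 and H2-Q7 encode Qa antigens that can be anchored by a lipid tail. H2-Q6 (35424850 to 35430055, plus strand) stood at 8.22 and 6.61 FPKM in ko and 1.57 and 1.46 FPKM in het, with 48 and 37 reads in het. H2-Q7 (35439155 to 35443773, plus strand) was the lowest member in every library, at 3.64 and 2.90 FPKM in ko and 0.721 and 0.656 FPKM in het. Its 45 and 34 het reads put its het mean under 1 FPKM, so it passed the filter through its ko values. For Q genes this low, the log2(FPKM + 1) scale understates the change: H2-Q7 was 4.75-fold higher by means, but its log2 fold change was 1.33 (SE 0.17).

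Among the T-region and M-region members, H2-T23 differed most. H2-T23 (chromosome 17, 36029773 to 36032855, minus strand) encodes the Qa heavy chain that natural killer cells read through the inhibitory receptor made of Klrd1 and Klrc1. It stood at 9.39 and 9.38 FPKM in ko, against 1.395 and 1.71 FPKM in het, or 6.05-fold (log2 fold change 2.03, SE 0.12). H2-T22 (36037128 to 36042747, minus strand), a ligand of some gamma delta T cells, stood at 8.34 and 6.89 FPKM in ko and 2.78 and 2.75 FPKM in het, or 2.75-fold (log2 fold change 1.19, SE 0.12). H2-M3 (37270220 to 37274484, plus strand) presents formylated peptides such as those of bacteria. It stood at 5.65 and 5.39 FPKM in ko and 2.71 and 1.95 FPKM in het, the smallest ratio of the 9 at 2.37-fold (log2 fold change 0.98, SE 0.15), and its groups did not overlap either.

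**Figure D1:**
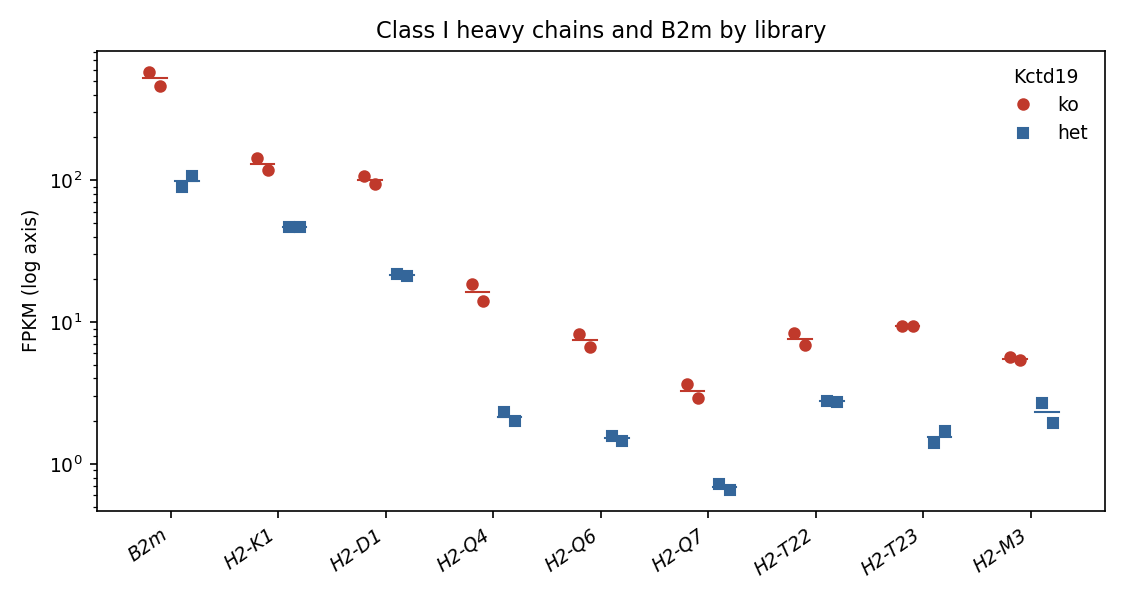
FPKM of each member (log axis) in the 2 ko libraries (circles) and the 2 het libraries (squares), with a line at each group mean. Every ko point lies above every het point of the same gene, from H2-Q7 at 2.90 FPKM or more in ko to B2m at 464 FPKM or more in ko.

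Counted together, the lower ko value exceeded the higher het value in 9 of 9 members, as in 22.1% of all tested genes, and 0 members had the opposite order, found in 19.7% of all. Limma called 6 of the 9 higher at a Benjamini-Hochberg adjusted p under 0.05 (B2m, H2-K1, H2-D1, H2-Q4, H2-Q6 and H2-T23), beside 0.207% of all tested genes called higher and 0.0112% called lower, and the other 3, H2-Q7, H2-T22 and H2-M3, were not called. Limma voom on the recovered reads called 9 of 9, beside 0.774% of genes called higher and 0.619% called lower in that fit. The median log2 fold change over the members was 1.74, and over all 17905 tested genes it was 0.01. The choice of members used this contrast, so nothing is read from these counts. With any 1 of the 4 libraries left out, limma called 0 genes in all, members included, while each member's log2 fold change stayed above 0, between 0.81 and 2.63.

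**Figure D2:**
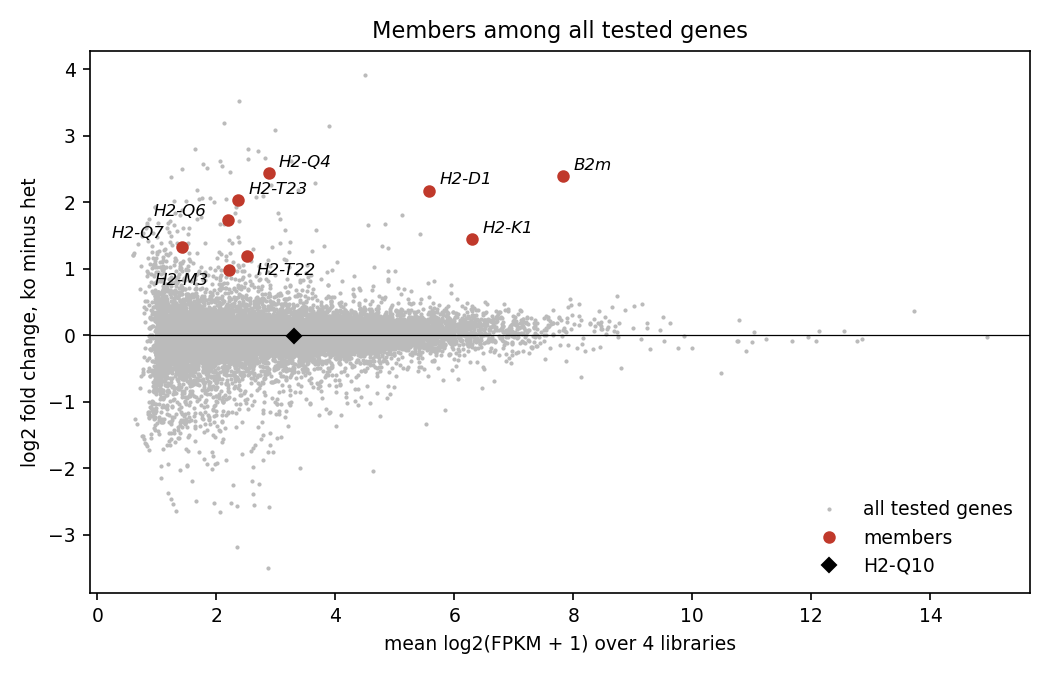
Log2 fold change (ko minus het) against mean log2(FPKM + 1) for the 17905 tested genes (grey), the 9 members (red) and H2-Q10 (black diamond). The members lie between 0.98 and 2.44, with B2m, H2-K1 and H2-D1 at high mean levels, and H2-Q10 lies at -0.02.

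The order of levels differed between the genotypes below the top 3 genes. B2m, H2-K1 and H2-D1 came first in all 4 libraries and H2-Q7 last. In ko the order continued with H2-Q4, H2-T23, H2-T22, H2-Q6 and H2-M3, of which H2-T22 and H2-Q6 overlapped between libraries. In het it continued with H2-T22, H2-M3, H2-Q4, H2-T23 and H2-Q6, where H2-M3 overlapped with H2-Q4, and H2-T23 with H2-Q6. H2-Q4 and H2-T23 therefore stood above H2-T22 in both ko libraries and below it in both het libraries.

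Summing the 8 heavy chains avoids part of the uncertainty about which copy a read belongs to. The summed level was 304 and 256 FPKM in ko, against 80.4 and 78.2 FPKM in het, or 280.2 ± 33.8 and 79.3 ± 1.54 FPKM (SD, n = 2 each), a 3.53-fold difference. B2m exceeded the summed heavy chains by a larger ratio in ko, 1.91 and 1.81, than in het, 1.11 and 1.38. Whole-testis RNA does not separate more cells of a type from more RNA per cell, and this holds for every member.

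Within the heavy chain sum, H2-K1 held 47.0% and 45.8% in ko, against 58.5% and 59.7% in het. H2-D1 held 35.4% and 36.6% in ko and 27.2% and 26.8% in het. The 6 nonclassical members together held 17.7% in each ko library and 14.3% and 13.4% in the het libraries. Of these, H2-Q4 took the largest share in ko, 6.08% and 5.50%, against 2.88% and 2.55% in het, while the H2-T22 share was lower in ko, at 2.74% and 2.69%, than in het, at 3.46% and 3.51%. The libraries of a genotype lay close together in these shares and the genotypes did not overlap in any of them.

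**Figure D3:**
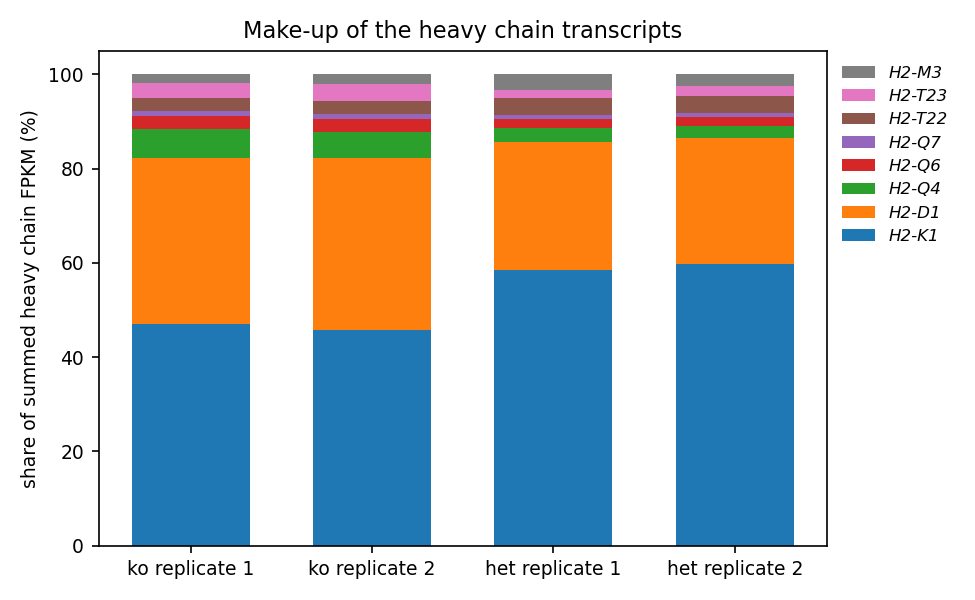
Share of the summed heavy chain FPKM (%) held by each of the 8 heavy chain members in ko replicates 1 and 2 and het replicates 1 and 2. The H2-K1 part is smaller in ko (47.0% and 45.8%) than in het (58.5% and 59.7%), and the H2-D1 part is larger.

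Near-identical copies limit how far single heavy chains can be told apart. Each gene's GENCODE M21 transcripts were cut into windows of 50 bases, and windows present in no other gene were counted. B2m had 100% of such windows, H2-M3 99.4%, H2-K1 90.4%, H2-D1 87.2%, H2-T23 86.4%, H2-Q4 78.2%, H2-Q7 73.6%, H2-Q6 68.0% and H2-T22 65.5%. H2-T22 shared 31.2% of its windows with H2-T10, which had 28 and 17 reads in ko and 5 and 6 reads in het. H2-Q7 shared 14.03% with H2-Q10, and H2-Q6 shared 13.9% with H2-Q7. The sources used here do not say how reads matching several genes were counted, so levels of H2-Q6, H2-Q7 and H2-T22 are the least certain, whereas B2m and H2-M3 share next to nothing.

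Of 29 other class I heavy chain symbols, 26 were in the tables, 3 were tested and limma called 0 of them. At an unadjusted p under 0.05, limma had 1 of the 3 higher, H2-Q5, and 877 genes higher and 790 lower over the 17905 tested genes. H2-Q10, which encodes a secreted heavy chain known from liver, stood at 8.30 and 9.42 FPKM in ko and 8.94 and 8.99 FPKM in het, and its het values lay between its ko values. Its log2 fold change was -0.02, with an SE of 0.10 (limma, Benjamini-Hochberg adjusted p = 0.968). H2-T24 stood at 2.78 and 3.52 FPKM in ko and 2.16 and 2.64 FPKM in het (log2 fold change 0.29, SE 0.16; limma, Benjamini-Hochberg adjusted p = 0.640). H2-Q5, annotated as a polymorphic pseudogene, stood at 1.78 and 1.898 FPKM in ko and 0.343 and 0.362 FPKM in het; limma did not call it (Benjamini-Hochberg adjusted p = 0.303), and voom did. It passed the filter through its ko values. A further 8 symbols, among them H2-M1, H2-M9 and H2-M11, were listed at 0 in all 4 libraries.

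The heavy chain members span 3278 kb of chromosome 17. Between H2-K1 and H2-M3, 130 tested genes are not class I, and limma called 4 of them higher and 0 lower: Tap1, Psmb9 and the class II chains H2-Aa and H2-Eb1. Limma called 0.207% of all tested genes higher. The median log2 fold change of the 130 was 0.14, and the lower ko value exceeded the higher het value in 58 of the 130 (44.6%, against 22.1% over all tested genes).

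**Figure D4:**
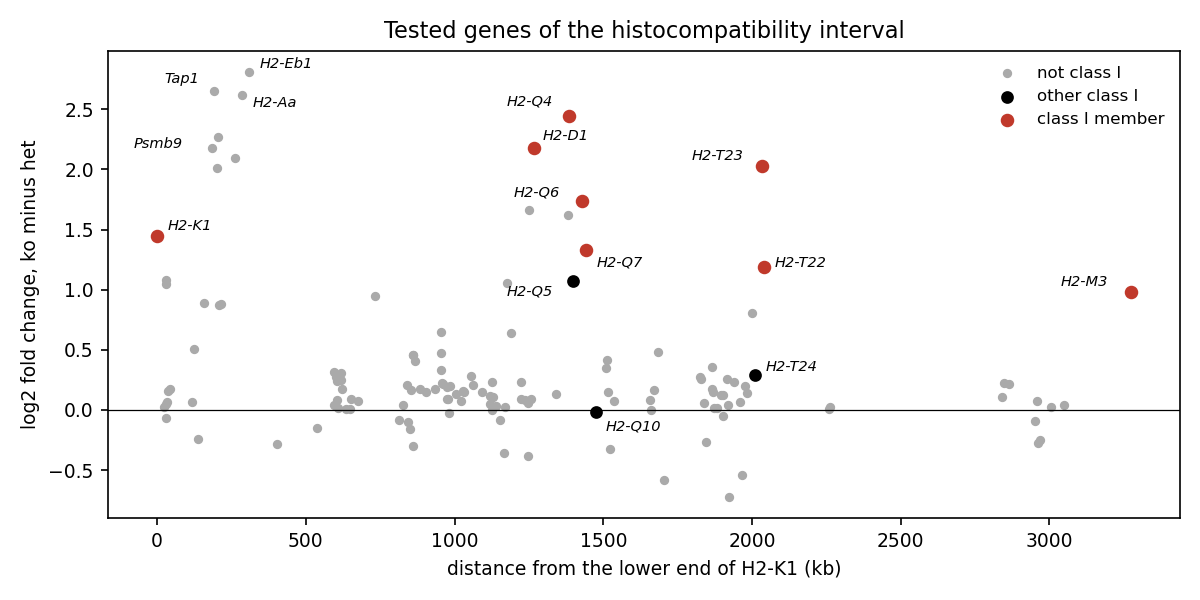
Log2 fold change (ko minus het) of tested genes on chromosome 17 against distance in kb from the lower end of H2-K1. The 8 members (red) lie from 0.98 upward, H2-Q10, H2-T24 and H2-Q5 (black) at -0.02, 0.29 and 1.07, and genes that are not class I (grey) have a median of 0.14.

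Genes that cut, transport and load peptides were higher in ko for some members of the list. Of 13 tested genes for loading and the immunoproteasome, limma called 3 higher and 0 lower, and voom called 9 higher. Over all genes tested, limma called 0.207% higher and voom 0.774%. The median log2 fold change was 0.71. Tap1, a subunit of the peptide transporter, stood at 13.6 and 13.3 FPKM in ko, against 1.17 and 1.43 FPKM in het (log2 fold change 2.65; limma, Benjamini-Hochberg adjusted p = 0.0171). Psmb9, an inducible proteasome subunit, rose to 6.47 and 5.25 FPKM in ko, against 0.373 and 0.652 FPKM in het (limma, Benjamini-Hochberg adjusted p = 0.0456), and it passed the 1 FPKM filter only through its ko values. Psmb10, another such subunit, rose to 18.4 and 17.7 FPKM in ko, against 6.93 and 6.85 FPKM in het (limma, Benjamini-Hochberg adjusted p = 0.0282). Limma and voom called 0 of 7 constitutive beta subunits, whose median was 0.10. The most abundant, Psmb4, stood at 92.0 and 79.4 FPKM in ko and 83.2 and 79.0 FPKM in het, and Psmb2 at 73.8 and 62.7 FPKM in ko and 57.6 and 56.7 FPKM in het.

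Of 17 regulators known to act on class I promoters, limma called 3 higher and 0 lower, and voom called 5 higher. The shares over all genes tested were 0.207% called higher by limma and 0.774% by voom. Nlrc5, the class I transactivator, stood at 6.13 and 8.54 FPKM in ko, against 0.161 and 0.213 FPKM in het, from 1011 and 1057 reads in ko and 20 and 22 reads in het (39.2-fold; limma, Benjamini-Hochberg adjusted p = 0.0325). With a het mean of 0.187 FPKM, Nlrc5 too passed the filter only through its ko values. Stat2, which carries type I interferon signals to the nucleus, rose to 13.6 and 14.96 FPKM in ko, against 4.43 and 5.18 FPKM in het (limma, Benjamini-Hochberg adjusted p = 0.0425). The median over the 17 genes was 0.03, and the constitutive binding factors Rfx5, Creb1 and Nfya, picked after their values were seen, had log2 fold changes of -0.01, -0.20 and -0.05. Without any 1 library, 0 genes of either list were called by limma.

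Other proteins share the class I fold. Of 12 class I-like genes outside the complex, 3 were tested and none was called by limma or voom. Fcgrt, the heavy chain of the neonatal Fc receptor and a partner of the light chain, stood at 22.9 and 22.6 FPKM in ko and 21.1 and 21.3 FPKM in het. Hfe, another partner, which regulates iron uptake, stood at 10.39 and 7.55 FPKM in ko and 7.21 and 10.02 FPKM in het, and its groups overlapped.

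Receptors that read class I on other cells were barely detected. None of 15 listed receptor genes reached a mean of 1 FPKM. Their summed level was 2.998 and 2.95 FPKM in ko and 1.87 and 2.52 FPKM in het, so it did not overlap between genotypes. Of the receptor for H2-T23, Klrc1 had 7 and 5 reads in ko and 1 and 0 in het, and Klrd1 had 12 and 4 in ko and 3 and 6 in het. Cd8a had 6 and 1 reads in ko and 0 and 2 in het, and Klra4 had 0 in all libraries. Cd160, the highest by its mean over the 4 libraries, stood at 0.701 and 0.805 FPKM in ko and 0.879 and 1.09 FPKM in het, and Lilrb4a, higher than Cd160 in ko replicate 1, at 0.758 and 0.591 FPKM in ko and 0.327 and 0.504 FPKM in het.

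Immune cell markers were recorded beside these results. Of 14 macrophage markers without class II genes, 11 were tested, limma called 1 higher, C1qb (46.5 and 39.9 FPKM in ko, 16.6 and 16.1 FPKM in het, Benjamini-Hochberg adjusted p = 0.0375), and voom called 5. Beside this, limma called 0.207% and voom 0.774% of all genes tested higher. The summed level of the 14 markers was 228 and 188 FPKM in ko and 105 and 113 FPKM in het, so it did not overlap between genotypes. The complement genes C1qa, C1qb and C1qc and the lysozyme gene Lyz2 were the most abundant markers of the list in ko and weigh most in that sum. In 9 of the 11 tested markers the lower ko value exceeded the higher het value, as in 22.1% of all tested genes. Among them, Fcgr1 stood at 2.84 and 2.09 FPKM in ko and 0.475 and 0.508 FPKM in het, and passed the filter through its ko values. Adgre1 stood at 4.61 and 3.92 FPKM in ko and 2.36 and 2.64 FPKM in het. The tested markers that overlapped were Mrc1 and Mertk. Mrc1 stood at 10.22 and 7.63 FPKM in ko and 9.01 and 9.05 FPKM in het (log2 fold change -0.03), and Mertk at 12.7 and 10.46 FPKM in ko and 10.9 and 11.7 FPKM in het (log2 fold change 0.03). For Csf1r, the receptor that macrophages need, the groups did not overlap and the log2 fold change was 0.21. Among untested markers Itgam and Cd14 overlapped. The 6 pan-leukocyte markers summed to 38.9 and 30.1 FPKM in ko and 16.5 and 18.9 FPKM in het, with 0 of 5 tested called by limma and 2 by voom. Its most abundant gene, Tyrobp, stood at 17.3 and 13.9 FPKM in ko and 5.63 and 8.51 FPKM in het, and Laptm5 at 6.15 and 4.96 FPKM in ko and 3.66 and 3.21 FPKM in het. The defining gene Ptprc stood at 0.371 and 0.382 FPKM in ko and 0.168 and 0.162 FPKM in het. The part of macrophages and other leukocytes in the class I difference was not tested.

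The lists for lymphocytes and endothelium were summed in the same way. The 12 T cell markers summed to 13.4 and 14.1 FPKM in ko and 11.3 and 12.3 FPKM in het, with 0 of 4 tested called. The most abundant of them overlapped between genotypes: Cd247 stood at 5.48 and 6.31 FPKM in ko and 5.64 and 6.35 FPKM in het, and Trac at 3.41 and 2.72 FPKM in ko and 2.63 and 3.26 FPKM in het. Cd3e overlapped as well, at 0.984 and 1.43 FPKM in ko and 1.36 and 0.847 FPKM in het. The remaining tested marker, Lck, did not overlap, at 1.30 and 1.10 FPKM in ko and 0.863 and 1.095 FPKM in het. Of the untested markers, Cd3d, Cd3g, Trbc1, Trbc2, Cd4 and Cd5 were higher in both ko libraries, while Cd2 and Cd6 overlapped. That order was found in 22.1% of all tested genes, and its share among untested genes was not counted. Reads were few for most of them, with Trbc1 at 5 and 2 in ko and 1 and 0 in het, and Cd5 at 8 and 6 in ko and 3 and 3 in het. Cd3g stood at 0.394 and 0.315 FPKM in ko and 0.0627 and 0.101 FPKM in het, and Cd4 at 0.689 and 0.783 FPKM in ko and 0.508 and 0.224 FPKM in het. The 8 natural killer and cytotoxic markers summed to 2.40 and 3.37 FPKM in ko and 0.396 and 1.35 FPKM in het, and none reached the filter. Gzmb, the granzyme gene of cytotoxic cells, stood at 0.717 and 0.765 FPKM in ko and 0.143 and 0.573 FPKM in het. Nkg7, the next by its mean, stood at 0.450 and 0.901 FPKM in ko and 0 and 0.180 FPKM in het, from 8 and 12 reads in ko and 0 and 2 reads in het. In this list only Prf1 overlapped between genotypes, but reads were few, such as 6 and 7 in ko and 0 and 2 in het for Ncr1. The share of untested genes with the same order was not counted, so nothing is read from it. The 6 B cell markers summed to 6.83 and 6.21 FPKM in ko and 2.31 and 2.96 FPKM in het, of which Ighm alone was tested and was called by voom only. Ighm, the IgM heavy chain, stood at 6.00 and 5.24 FPKM in ko and 1.81 and 2.22 FPKM in het, while Cd79a overlapped, at 0.283 and 0.283 FPKM in ko and 0.0469 and 0.565 FPKM in het. In these 3 lymphocyte lists the ko sums lay above the het sums. The 10 endothelial markers summed to 38.4 and 33.5 FPKM in ko and 34.7 and 37.3 FPKM in het, with 0 of 9 tested called by either fit. The share of these cells in the class I difference was not tested.

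**Figure D5:**
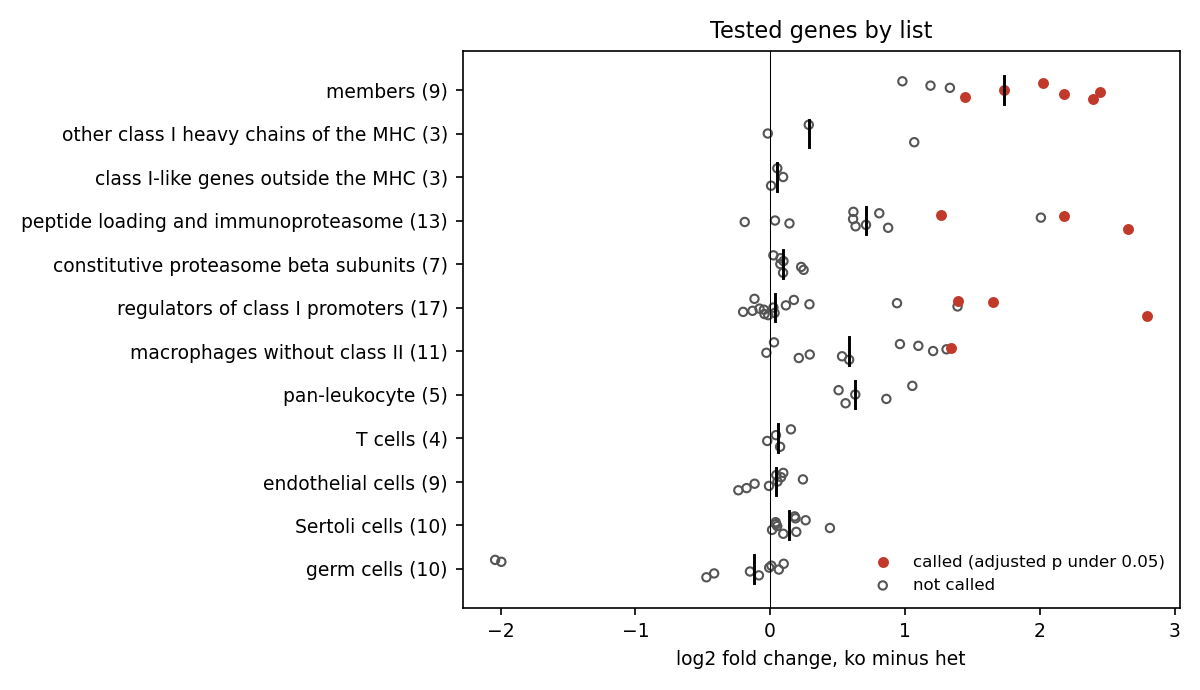
Log2 fold change (ko minus het) of each tested gene by list, with the number tested in brackets, a bar at the list's median and filled points for genes called by limma. The members' median is 1.74, that of peptide loading genes 0.71, of macrophage markers 0.59, of constitutive proteasome subunits 0.10 and of T cell markers 0.06.

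The genes whose values were most like the members' were found by the distance between centred log2(FPKM + 1) values over the 4 libraries, among 12786 other protein-coding genes. Tnfaip2, a gene induced by tumour necrosis factor, was nearest to the members' median profile, at a distance of 0.125. It stood at 5.11 and 4.67 FPKM in ko and 0.822 and 0.677 FPKM in het. Then came Oasl2, Ctss, Plac8 and Rtp4, at distances of 0.193 to 0.242, whereas the members themselves lay at 0 to 0.793. Ctss, the protease cathepsin S, stood at 25.1 and 17.5 FPKM in ko and 6.54 and 6.18 FPKM in het, and the interferon-induced Oasl2 at 14.8 and 14.1 FPKM in ko and 3.43 and 3.77 FPKM in het. With 4 libraries many genes share such a profile, and the list describes likeness only.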

How the data were processed

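Poly(A) RNA of testis was sequenced in 2 ko and 2 het libraries. The deposited tables of the authors give each library's FPKM by gene symbol, as their headers state. CASAVA 1.9, STAR 2.6.1a, featureCounts, edgeR and GRCm38 are named in the submitters' processing notes without roles. Strand use, treatment of reads with several matches and the annotation release are not stated in these sources. Members and lists were chosen with earlier results of these data known.

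Symbols were matched to GENCODE M21 (96.0% of rows). FPKM times exon length moved in steps taken as 1 read; of values up to 20 reads, 99.2% or more per library were whole within 0.02. Replicates differed beyond counting error (chi-square per gene 19.7 in ko, 6.29 in het). The unit being FPKM, the main test was not a count test. Rows averaging 1 FPKM or more were put on the log2(FPKM + 1) scale and compared between genotypes with limma 3.58.1, using an intensity trend (R 4.3.3), Benjamini-Hochberg adjusted over 17905 genes; the code was tested on simulated data. P-values measure only the spread between these libraries. All members are named, and so are the 5 nearest profiles. From each list, called genes (up to 4 by p) or the 2 most abundant are named, with endothelial, Sertoli, Leydig and germ cell lists as sums only. Ptprc, Cd3e, Cd8a, Mrc1, Mertk, Csf1r, Itgam, Cd14, Piwil1, Ldhc and H2-T10 were added after their values were seen. So were Fcgr1, Adgre1, Lck, Cd3d, Cd3g, Trbc1, Trbc2, Cd2, Cd4, Cd5, Cd6, Prf1, Ncr1, Klrc1 and Klrd1. Alternatives were another pseudocount, no filter, a replicate block, each library left out, 3 scalings and voom on recovered reads. The remaining called regulator is not reported here.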

Additional observations from a re-analysis of the deposited data

How the results depend on the processing

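Counts of calls depended on the setting. Limma on FPKM called 37 genes higher and 2 lower, 6 members among them. Without the filter, and without any 1 library, it called 0 higher, 0 lower and 0 members (range 0 to 0 on leaving out each library), with 1767 higher and 1331 lower without the filter, and 563 to 986 higher and 498 to 1034 lower on leaving out a library, at an unadjusted p under 0.05. With the replicate block it called 15 higher, 0 lower and 2 members, H2-D1 and H2-Q4, with 760 and 790 at the unadjusted level. It called 1 peptide loading gene and 0 regulators, against 3 of each without the block. The labels give replicate numbers without a stated pairing. Same-numbered deviations correlated at -0.03 over genes, but with 1 difference per genotype this cannot show whether same-numbered samples were paired. Voom called 135 higher, 108 lower and 9 members. Upper-quartile scaling called 5 members, and the remaining alternatives called 6.

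The members' median log2 fold change was 1.74, 2.21 with a pseudocount of 0.1, 2.24 with voom and 1.60 to 1.87 on leaving out each library. Of 99 values of single members under 11 alternatives, 99 were above 0, and the 12 that moved by more than the replicate spread did so with voom or the smaller pseudocount. The fold of the summed heavy chains was 3.23 to 3.84 on leaving out each library and 3.50 without H2-Q6 and H2-Q7. The cause of the lost calls was not tested. Each genotype has 2 libraries, and het reads of H2-Q6, H2-Q7 and H2-M3 number 34 to 57, which limits their precision.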
